A study of Rattus norvegicus with 12 samples.

Results

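Galntl5, Myo5c and Tsga10 are 3 rat genes whose probes were followed across all 12 arrays of a study of the lesioned dorsal striatum. They were selected on the measured log2 signals of these same arrays, which earlier readings had shown to be higher in treated than in untreated lesioned rats, so every difference from the untreated group given here describes the choice and carries no test. Every non-control probe whose gene name is one of the 3 was taken, which gave 4 of 41012 probes and 3 of 35608 gene names: 1 probe for Galntl5, 2 for Myo5c and 1 for Tsga10. All 4 probes passed the filter on dim probes, which asks for detection on a share of 0.4 of all arrays or more and can be met through the groups where a gene is bright.

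RNA from the dorsal striatum of male rats was hybridized to single-colour Agilent arrays, 1 rat per array and 3 rats per group. All 12 rats, the untreated ones included, carried a unilateral lesion made by injecting 9 µg of 6-OHDA, a toxin that destroys dopamine neurons, into the left substantia nigra, so no unlesioned group was compared here. The 6-OHDA group had the lesion alone. The HFS group received high frequency stimulation of the subthalamic nucleus on the lesioned side over 5 days (60 µA pulses of 80 µs, given at 130 Hz). DOPA rats were injected 2 times daily over 19 days with L-DOPA (25 mg/kg) and benserazide (12.5 mg/kg), which keeps L-DOPA from being converted outside the brain. DOPA/HFS rats had both treatments. Electrodes were described for the stimulated groups, and no sham implantation or vehicle injection was described for the 6-OHDA group, so effects of the surgery and of the injections cannot be told apart from those of the treatments. The tissue was pooled from punches of each striatum, and in such bulk samples a change in the number of cells of a type and a change in RNA per cell cannot be told apart.

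Galntl5 belongs by sequence to the family of polypeptide GalNAc-transferases, Golgi enzymes that attach the first sugar of mucin-type O-glycans to proteins, and it is known mainly from testis and developing spermatids. Myo5c is a class V myosin, an actin motor that carries membrane cargo such as secretory granules, and it is known mainly from glands and epithelia, whereas its relatives Myo5a and Myo5b are better known from neurons and recycling endosomes. Tsga10, testis specific antigen 10, is a coiled-coil protein of the sperm tail and centrosome that has also been described to hold the hypoxia factor HIF1A in the cytoplasm. None of the 3 is a usual marker of a striatal cell type.

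The 250 bases before the RefSeq start of each gene show how unlike the 3 promoters are, although the genes were chosen for a like direction of change. The sequences are from RefSeq on the rat assembly GRCr8, run 5′ to 3′ on the strand of the gene, and have each CG dinucleotide in capitals.
Galntl5 (chr4:10656954-10657203, minus strand): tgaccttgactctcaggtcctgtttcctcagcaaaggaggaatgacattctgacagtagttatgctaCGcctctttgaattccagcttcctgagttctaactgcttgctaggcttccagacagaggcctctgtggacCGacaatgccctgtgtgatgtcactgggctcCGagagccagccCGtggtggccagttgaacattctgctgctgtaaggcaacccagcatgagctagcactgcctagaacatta
Myo5c (chr8:84869793-84870042, plus strand): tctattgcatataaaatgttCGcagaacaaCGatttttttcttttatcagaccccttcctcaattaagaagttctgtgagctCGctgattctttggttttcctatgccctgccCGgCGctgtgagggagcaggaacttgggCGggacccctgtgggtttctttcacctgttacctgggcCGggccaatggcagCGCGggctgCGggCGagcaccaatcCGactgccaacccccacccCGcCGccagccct
Tsga10 (chr9:47594062-47594311, minus strand): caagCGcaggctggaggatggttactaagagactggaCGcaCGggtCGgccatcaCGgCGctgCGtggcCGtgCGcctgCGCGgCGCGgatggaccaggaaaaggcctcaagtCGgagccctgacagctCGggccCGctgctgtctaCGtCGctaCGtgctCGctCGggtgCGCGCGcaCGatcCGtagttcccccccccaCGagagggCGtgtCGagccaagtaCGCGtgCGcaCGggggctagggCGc

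The Galntl5 window held 4 CG dinucleotides and 52% G or C, the Myo5c window 14 and 56%, and the Tsga10 window 34 and 69.6%. Over 33469 rat promoter windows of the same length the median was 5 CG dinucleotides and 51.2% G or C. The share of windows with fewer CG dinucleotides was 37.4% for Galntl5, 72.4% for Myo5c and 97% for Tsga10, so the window of Tsga10 was among the richest and that of Galntl5 was ordinary. On either strand, the Myo5c window held 1 TATA box (TATAAA, in 12.9% of all windows), 2 CCAAT boxes (CCAAT, in 34%) and 1 GC box (GGGCGG, in 30.5%), none of which overlap. The windows of Galntl5 and Tsga10 held none of these letters, and none of the 3 windows held the cAMP response element TGACGTCA, found in 1.59% of all windows. A match describes letters only, and nothing was measured at these promoters.

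Values are log2 signals after quantile normalization, and a probe counts as detected on an array where the scanner software marked its spot well above background. The share of spots detected differed between the groups, at 53.8% to 58.9% of each 6-OHDA array, 60.3% to 63.2% in HFS, 50.5% to 58% in DOPA and 60% to 62.8% in DOPA/HFS. The lowest signal detected on an array moved with it, from 4.61 to 5.30 in 6-OHDA, 4.03 to 4.45 in HFS, 4.71 to 5.71 in DOPA and 3.60 to 4.22 in DOPA/HFS. The same signal could therefore be detected on an HFS or DOPA/HFS array and not on a 6-OHDA or DOPA array. Each of the 3 slides held 1 array of each group, numbered as the replicate, and every group kept 1 position on all slides, so position and treatment cannot be told apart. DOPA/HFS replicate 3 had 4175 spots marked as outliers against 2 to 25 on the other arrays, and none of them belonged to the 4 probes. Leaving them out still moved the values of the 3 genes. With outlier spots kept, DOPA/HFS differed from 6-OHDA by 2.53 for Galntl5, in place of 2.72. It differed by 1.59 for the brighter Myo5c probe, in place of 1.80, and by 1.05 for Tsga10, in place of 1.26.

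Galntl5 was the clearest of the 3. It was detected on 8 of the 12 arrays, with none of 6-OHDA, all 3 of HFS, 2 of DOPA and all 3 of DOPA/HFS. In 6-OHDA its log2 signals on replicates 1, 2 and 3 were 3.69, 4.03 and 3.26, the last being a surrogate value set by the scanner software for a spot too dim to measure. The HFS signals were 6.67, 6.48 and 6.24. The stimulated arrays thus lay close to each other and far above all untreated ones. The DOPA signals were 4.54, 5.44 and 6.44, with replicate 1 not detected. The DOPA/HFS signals were 6.56, 6.46 and 6.13. DOPA arrays spread from just above the untreated range to within the stimulated range, while the 3 arrays of the combined treatment fell beside those of HFS.

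On the linear scale of the scanner, corrected for background and before normalization between arrays, Galntl5 read 11.4, 13.1 and 14.4 in 6-OHDA. The HFS arrays read 86.3, 109.7 and 104.7, the DOPA arrays 19.6, 44.0 and 64.9, and the DOPA/HFS arrays 100.4, 93.6 and 77.9. The order of the groups was thus present before any scaling. These are dim spots: the unsubtracted spot means were 86.4 to 92.5 in 6-OHDA and 159 to 174 in HFS, over a local background of 43 to 49. The negative control spots of the arrays had unsubtracted medians of 74.2 to 79.3 in 6-OHDA and 74.7 to 79.5 in HFS. In 6-OHDA the probe therefore read only a little above the negative controls.

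The group means for Galntl5 were 3.66 ± 0.38 in 6-OHDA, 5.47 ± 0.95 in DOPA, 6.38 ± 0.23 in DOPA/HFS and 6.47 ± 0.22 in HFS (SD, n = 3 each). HFS differed from 6-OHDA by 2.81, DOPA by 1.81 and DOPA/HFS by 2.72, each with a standard error of 0.39 in the limma fit. Because no 6-OHDA array detected the gene, the level there is uncertain. Against a floor at the lowest detected signal, the HFS arrays were 2.74-fold higher and the DOPA/HFS arrays 2.59-fold. These folds set the treated mean against the mean, per 6-OHDA array, of the lowest detected signal or of the probe's own, whichever was higher. They are not strict bounds, because a spot above that floor can go undetected. On 6-OHDA replicate 3 the floor was 5.30, and Tsga10 at 5.49 was not detected. The folds hold for the scanner's background subtraction: with other background handling the difference itself was smaller, at 0.80 on the log2 scale in both groups with normexp and at 0.85 and 0.76 in the deposited table. No such fold is given for DOPA, where 1 array did not detect the gene. No treated array overlapped the 6-OHDA arrays, and every slide put each treated array above its untreated one, by 2.46 to 2.98 for HFS, by 0.85 to 3.18 for DOPA and by 2.44 to 2.87 for DOPA/HFS. Among all tested genes the 2 groups did not overlap for 5.12% (HFS), 6.26% (DOPA) and 4.18% (DOPA/HFS), and with the treated group higher for 2.79%, 3.15% and 1.74%.

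**Figure D1:**
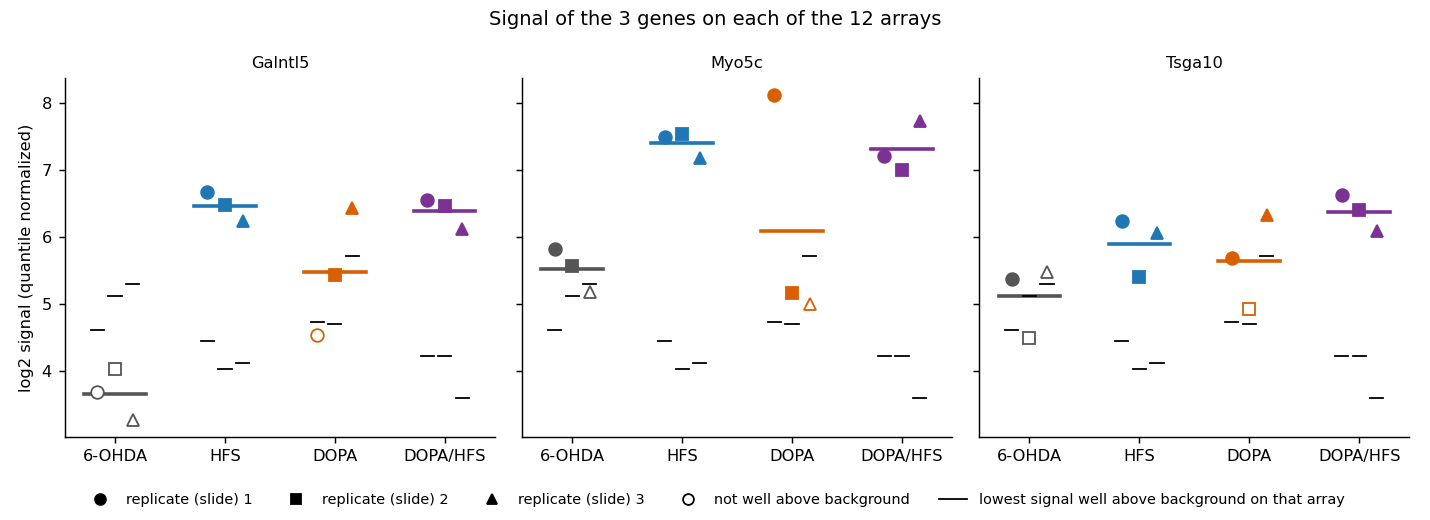
Log2 signal after quantile normalization (y axis) of Galntl5, of the brighter Myo5c probe and of Tsga10 in the 4 groups (x axis), with 1 symbol per array, the symbol shape giving the replicate and slide, open symbols for arrays where the probe was not well above background, coloured bars for group means and short black bars for the lowest signal well above background on that array. Galntl5 is open on every 6-OHDA array and between 6.13 and 6.67 on the HFS and DOPA/HFS arrays, Myo5c in DOPA is split between 8.13 on replicate 1 and 5.16 and 4.997 on the others, and Tsga10 has 1 HFS array and 1 DOPA array at or below 5.40, within the range of the 6-OHDA arrays.

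Myo5c, the motor protein, stood clear of 6-OHDA in the 2 stimulated groups on the brighter of its 2 probes only. The brighter of its 2 probes was detected on 10 of the 12 arrays, the exceptions being 6-OHDA replicate 3 and DOPA replicate 3. Its signals in 6-OHDA were 5.82, 5.56 and 5.18. In HFS they were 7.50, 7.54 and 7.18. In DOPA/HFS they were 7.22, 7.01 and 7.73. All 6 stimulated arrays lay above all untreated ones, and the HFS and DOPA/HFS arrays were mixed with each other. Among all tested genes the treated arrays lay wholly above the 6-OHDA arrays for 2.79% in HFS and 1.74% in DOPA/HFS. In DOPA the signals were 8.13, 5.16 and 4.997. Replicate 1 of DOPA was the highest of all 12 arrays, whereas the other 2 were the lowest, and so the DOPA mean stands for no array of that group.

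The group means of the brighter Myo5c probe were 5.52 ± 0.32 in 6-OHDA, 6.10 ± 1.76 in DOPA, 7.32 ± 0.37 in DOPA/HFS and 7.41 ± 0.20 in HFS (SD, n = 3 each). The differences from 6-OHDA were 1.89 for HFS, 0.57 for DOPA and 1.80 for DOPA/HFS, with a standard error of 0.65. On single slides the difference was 1.68, 1.98 and 1.99 for HFS and 1.40, 1.45 and 2.55 for DOPA/HFS, whereas for DOPA it was 2.31 on slide 1 and -0.40 and -0.19 on the others. Without DOPA replicate 1 the DOPA difference became -0.44, so that the direction in this group rested on 1 rat. In scanner units, DOPA replicate 1 read 248 against 36.9 and 21.4 on replicates 2 and 3, and its spot was not marked as an outlier or saturated.

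The dimmer Myo5c probe did not show this pattern. It was detected on 7 of 12 arrays, with 1 in 6-OHDA, 1 in DOPA, 2 in DOPA/HFS and 3 in HFS. Its signals were 5.57, 3.50 and 5.33 in 6-OHDA, 5.15, 5.08 and 5.52 in HFS, 4.24, 5.48 and 5.42 in DOPA, and 5.61, 4.05 and 6.77 in DOPA/HFS. The groups overlapped in every comparison, and the array that was highest for the brighter probe, DOPA replicate 1, was among the lowest here. The group means were 4.80 ± 1.14, 5.25 ± 0.24, 5.05 ± 0.70 and 5.48 ± 1.36 in 6-OHDA, HFS, DOPA and DOPA/HFS (SD, n = 3 each), and the differences from 6-OHDA were 0.45, 0.25 and 0.68 with a standard error of 0.72. With the mean of both probes in place of the brighter one, Myo5c differed from 6-OHDA by 1.17 in HFS, 0.41 in DOPA and 1.24 in the combined group.

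A further probe, of the transcript cluster TC541702, is described in the files as part of human myosin Vc, although its gene name is not Myo5c and it was found by that description after the values had been seen. It was detected on all 12 arrays at group means of 8.35 ± 0.32 in 6-OHDA, 8.45 ± 0.15 in DOPA, 8.27 ± 0.29 in DOPA/HFS and 8.25 ± 0.30 in HFS (SD, n = 3 each). Its differences from 6-OHDA were -0.10, 0.11 and -0.08, and the groups overlapped each time (exact two-sided permutation test, p = 0.9, 0.6 and 0.7). The 95% confidence intervals ran from -0.57 to 0.38, from -0.37 to 0.58 and from -0.56 to 0.40, below the difference of the brighter Myo5c probe in HFS and DOPA/HFS. Across the 12 arrays the signals of the 3 probes were almost unrelated, with a Pearson correlation of 0.06 between both Myo5c probes, -0.01 between the brighter probe and that of TC541702, and -0.17 between the dimmer probe and that of TC541702. The files hold no probe sequences, so which transcripts the 3 probes read was not tested.

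**Figure D2:**
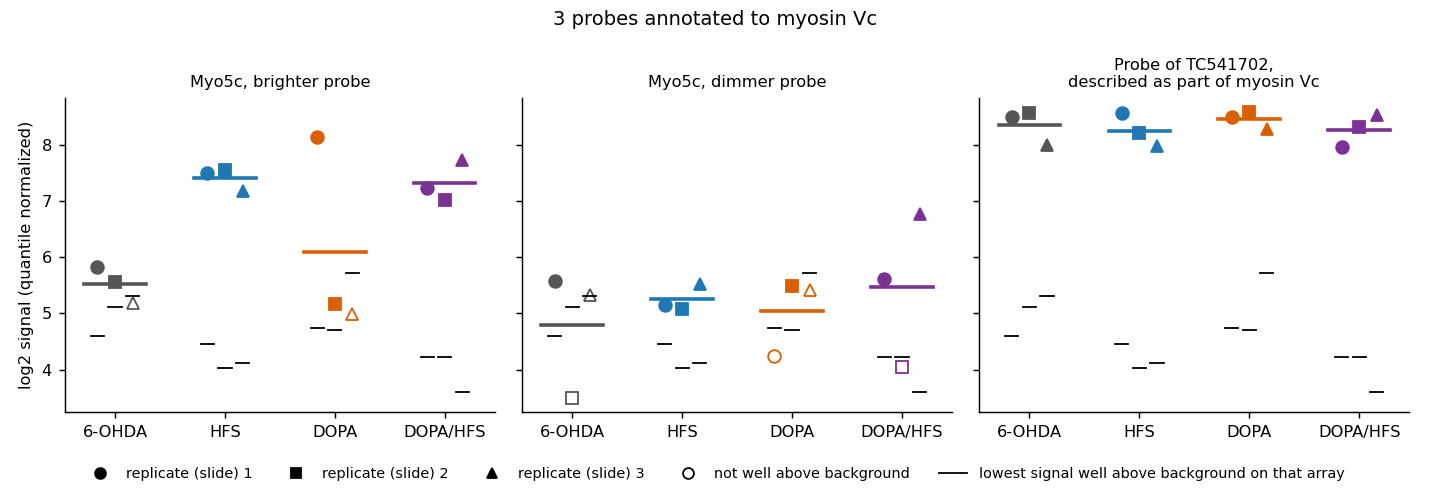
Log2 signal (y axis) of the 3 probes annotated to myosin Vc in the 4 groups (x axis), with symbols and bars as for the plot of the 3 genes. The brighter Myo5c probe separates all HFS and DOPA/HFS arrays from the 6-OHDA arrays, while the dimmer probe, detected on 7 of 12 arrays, and the probe of TC541702, detected on 12, do not.

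The Tsga10 probe was detected on 1 of 3 arrays in 6-OHDA, on 3 in HFS, on 2 in DOPA and on 3 in DOPA/HFS. The signals in 6-OHDA were 5.38, 4.49 and 5.49. In HFS they were 6.25, 5.40 and 6.07. One HFS array therefore lay within the untreated range. In DOPA the signals were 5.70, 4.92 and 6.33, and in DOPA/HFS they were 6.63, 6.40 and 6.09. Only the combined treatment stood clear of the 6-OHDA arrays, by a gap of 0.60. Among all tested genes the DOPA/HFS arrays lay wholly above the 6-OHDA arrays for 1.74%. In the deposited table the Tsga10 gap was absent. DOPA/HFS replicate 3 read 6.94 there, against 6.95 and 7.01 on 6-OHDA replicates 1 and 3. With normexp background correction that array read 7.26, above the 6-OHDA arrays at 6.83 to 7.07. The deposited table also put this array lower than normexp for Galntl5 (6.93 against 7.26), the brighter Myo5c probe (7.78 against 8.26) and TC541702 (8.19 against 8.69). The lost gap therefore cannot be told apart from a shift of that array.

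The group means of Tsga10 were 5.12 ± 0.55, 5.91 ± 0.45, 5.65 ± 0.71 and 6.37 ± 0.27 in 6-OHDA, HFS, DOPA and DOPA/HFS (SD, n = 3 each). The differences from 6-OHDA were 0.79, 0.53 and 1.26, with a standard error of 0.38. Replicate 2 was the lowest array in 6-OHDA, HFS and DOPA, and within each slide every treated array lay above the untreated one. In the deposited table the DOPA/HFS array of slide 3, which read low there for other probes too, lay below its untreated one. With normexp it lay above, at 7.26 against 7.07. The slide differences were 0.58 to 0.92 for HFS, 0.32 to 0.85 for DOPA and 0.60 to 1.92 for DOPA/HFS. Without 6-OHDA replicate 2, the lowest array of all, the differences became 0.47, 0.22 and 0.94, and without DOPA replicate 3 the DOPA difference became 0.19.

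The contrasts between treated groups did not enter the choice of the genes, although the treated arrays themselves did, and they were tested for the 3 genes in 3 contrasts each. None of these differences passed an adjusted p under 0.1 in limma with Benjamini-Hochberg adjustment over 20462 genes. In the same fit 1 gene passed in DOPA against HFS (0.00489% of those tested) and 0 in both other contrasts. An unadjusted p under 0.05 was reached by 4.61% of the genes in DOPA against HFS, 2.43% in DOPA/HFS against HFS and 3.79% in DOPA/HFS against DOPA. The arrays of the 2 groups did not overlap for 13.8%, 6.37% and 9.42% of the genes in these contrasts, and overlapped for all 3 members in each. With 3 arrays against 3, an exact two-sided permutation test cannot give a p below 0.1.

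Galntl5 differed by -0.99 between DOPA and HFS, with a 95% confidence interval of -1.85 to -0.14. The limma adjusted p was 0.984, against 0.0266 unadjusted, and the exact permutation p was 0.2, with DOPA lower on 2 of the 3 slides. DOPA/HFS exceeded DOPA by 0.91 (0.06 to 1.77), with a limma adjusted p of 0.999991, 0.0389 unadjusted, and an exact permutation p of 0.2. DOPA/HFS and HFS differed by -0.08 (-0.94 to 0.77; exact permutation p = 0.6), so a difference in either direction remains within the interval. DOPA had the lowest treated mean for Galntl5, but its arrays spread widely and overlapped both other groups.

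For Myo5c, read by its brighter probe here and below unless stated, DOPA differed from HFS by -1.31 (95% confidence interval -2.74 to 0.12). The exact permutation p was 0.4 and the limma adjusted p was 0.984. DOPA/HFS differed from DOPA by 1.22 (-0.21 to 2.66; exact permutation p = 0.4) and from HFS by -0.09 (-1.52 to 1.35; exact permutation p = 0.9). Without DOPA replicate 1 the difference between DOPA and HFS became -2.33 with a standard error of 0.25 and a limma adjusted p of 0.0729, past the threshold, whereas the other alternatives gave adjusted p from 0.751 to 0.999926. The call thus hangs on the rat with the highest signal. Tsga10 differed by -0.25 between DOPA and HFS (-1.08 to 0.58; exact permutation p = 0.7), by 0.47 between DOPA/HFS and HFS (-0.36 to 1.30; exact permutation p = 0.2) and by 0.72 between DOPA/HFS and DOPA (-0.11 to 1.55; exact permutation p = 0.2). DOPA/HFS was above HFS for Tsga10 on all 3 slides, by 0.38, 1.003 and 0.025. On slide 3 this turned with the processing: DOPA/HFS read 7.26 against 7.28 in HFS with normexp background correction. In the deposited table it read 6.94 against 7.24, on the DOPA/HFS array that read low there for other probes too.

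**Figure D3:**
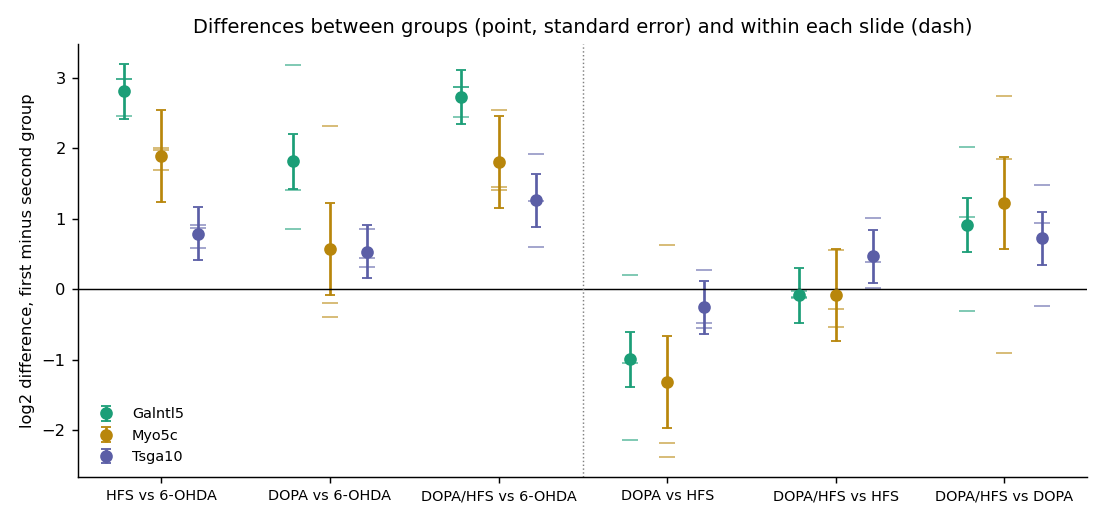
Log2 difference between groups (y axis, first minus second group) in 6 contrasts (x axis) for the 3 genes, with points and standard errors from the limma fit and dashes for the difference within each of the 3 slides. Left of the dotted line, all slides are above 0 except those of Myo5c in DOPA, at -0.40 and -0.19, and right of it the slides lie on both sides of 0 for most contrasts.

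The effect of stimulation can also be set with and without L-DOPA, as a description, because it uses the 6-OHDA arrays. For Galntl5, DOPA/HFS exceeded DOPA by 0.91 while HFS exceeded 6-OHDA by 2.81, a gap of -1.90 with a standard error of 0.55. The 6-OHDA level of Galntl5 was below detection, and the gap shrank to -0.61 with values floored at detection, -0.48 with normexp and -0.58 in the deposited table. The gap was -0.66 ± 0.92 (SE) for Myo5c and -0.06 ± 0.53 (SE) for Tsga10. The group with both treatments thus had means no higher than HFS alone for Galntl5 and the brighter Myo5c probe. Its mean for Tsga10 was the highest of the 4 groups. The dimmer Myo5c probe had a mean of 5.48 in DOPA/HFS and 5.25 in HFS, and the mean of both probes differed by 0.068.

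Across the 12 arrays, Pearson's correlation was 0.463 between Galntl5 and Myo5c, 0.669 between Galntl5 and Tsga10 and 0.446 between Myo5c and Tsga10. These values are a description over arrays that share groups and slides. With the group means removed they were -0.721, 0.19 and -0.0719. Galntl5 and Myo5c were highest on different DOPA arrays: replicate 1 was the lowest of its group for Galntl5 and the highest for Myo5c. Within groups the 3 genes showed no common direction.

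The 5 genes whose signal was most like each member over the 12 arrays were taken from 18350 genes with complete values, with no p. For Galntl5 they were Kars1 (Pearson r = 0.825), Polr3f (0.78), Slc14a1 (0.75), Rpe65 (0.749) and the unnamed probe A_44_P889730 (0.738), of which Kars1, a lysyl-tRNA synthetase, varied by only 0.296 log2 units. For Myo5c they were TC551473 (0.859), TC545568 (0.81), Pet112l (0.804), Ndufb11 (0.765), a subunit of respiratory complex I, and CF110171 (0.746). For Tsga10 they were Tomm22 (0.925), a receptor of the mitochondrial import machinery, Car8 (0.917), Dctn6 (0.912), BC099786 (0.902) and Naaa (0.897). The 3 sets share no gene.

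Markers of other cell types were set beside these values. Striatal projection neuron markers were detected on every array (14 of 14 genes). The summed intensity of 12 choroid plexus markers, the epithelium that makes cerebrospinal fluid, was 7642 to 9967 in 6-OHDA with 6 or 7 of the 12 detected. In HFS it was 107750, 15758 and 66358, with 10 to 12 detected. The transthyretin gene Ttr, a defining marker of the plexus, had log2 signals of 5.80 to 6.59 in 6-OHDA and 11.86 to 16.30 in HFS. The plexus sum was thus high in HFS, where Galntl5 and Myo5c were high too.

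In DOPA/HFS the plexus sum was 7332 to 9415, within or near the 6-OHDA range, with 5 to 9 markers detected. Galntl5 had a mean of 6.38 in that group and 6.47 in HFS, and Myo5c 7.32 and 7.41. Within HFS, the sums were 107750, 15758 and 66358 on replicates 1, 2 and 3. Myo5c read 7.50, 7.54 and 7.18 on these arrays, Galntl5 6.67, 6.48 and 6.24, and Tsga10 6.25, 5.40 and 6.07. Tsga10 thus had the order of the sum, Galntl5 was highest on the array with the highest sum, and Myo5c on that with the lowest, by a small margin. In DOPA the sum was 7024, 9811 and 25289 on replicates 1, 2 and 3, so that Myo5c was highest on the array with the lowest plexus sum, whereas Galntl5 and Tsga10 were highest on the array with the highest. Ciliated ependymal cells, which line the ventricle, gave sums over 10 markers of 2825 to 10372 in 6-OHDA, 5995 to 9925 in HFS, 3347 to 4630 in DOPA and 4591 to 7451 in DOPA/HFS. The 6-OHDA arrays spanned the range of all groups, and the part of plexus or ependyma in the values of the 3 genes was not tested.

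Of 14 other genes of the GalNAc-transferase family on the array, 10 were tested and Galnt3, Galnt5, Galnt12 and Galnt17 were too dim. None passed an adjusted p under 0.1 in any contrast, where 0% of all genes did so in HFS and DOPA/HFS against 6-OHDA and 0.00489% in DOPA. At an unadjusted p under 0.05, 1 of the 10 passed in HFS (Galnt7) and 0 in DOPA and DOPA/HFS, beside 2.34%, 2.59% and 2.76% of all genes. In HFS 8 were higher and 2 lower than in 6-OHDA, with a median difference of 0.11 against 0.01 over all genes. The medians were -0.01 in DOPA and 0.14 in DOPA/HFS. Galnt7, a transferase that extends glycopeptides already carrying GalNAc, had the largest value, 0.78 ± 0.31 (SE) in HFS, then -0.03 in DOPA and 0.56 in DOPA/HFS. At the other end, Galnt13, a transferase of neurons, had -0.32, -0.23 and -0.24 ± 0.18 (SE).

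Of 11 genes that extend or cap O-glycans, 8 were tested and 0 passed an adjusted p under 0.1 in any contrast. At an unadjusted p under 0.05, 1 of the 8 passed in each comparison with 6-OHDA, beside the 2.34%, 2.59% and 2.76% of all genes given above. It was C1galt1c1 in HFS and B3gnt3 in DOPA and in DOPA/HFS. B3gnt3, which adds N-acetylglucosamine to such chains, differed by 0.60 (HFS), 1.03 (DOPA) and 0.99 (DOPA/HFS) (SE 0.43). C1galt1c1, the chaperone of the core 1 synthase, differed by 0.31, 0.17 and 0.25 (SE 0.13). The 8 genes had medians of 0.18, 0.17 and 0.11.

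Of 14 other unconventional myosins, 12 were tested and 0 passed in any contrast. Myo5a, the neuronal class V myosin, differed from 6-OHDA by 0.14 (HFS), -0.14 (DOPA) and -0.21 (DOPA/HFS), and Myo5b by 0.07, -0.01 and 0.05. The largest values in HFS were those of Myo1d (0.86 ± 0.56, SE) and Myo7a (0.75 ± 0.45, SE). The medians were 0.09 (HFS), 0.00 (DOPA) and 0.01 (DOPA/HFS), beside 0.01, -0.01 and -0.01 over all genes. The light chains and cargo adaptors of class V myosins, of which 19 of 21 were tested, gave medians of 0.04, 0.04 and 0.01, and 0 passed in any contrast. Myrip, which links the granule protein Rab27a to myosins, was the lowest of them in all 3 comparisons, at -0.43, -0.60 and -0.46 (SE 0.31), and Rab27a itself differed by -0.06, 0.27 and 0.33.

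**Figure D4:**
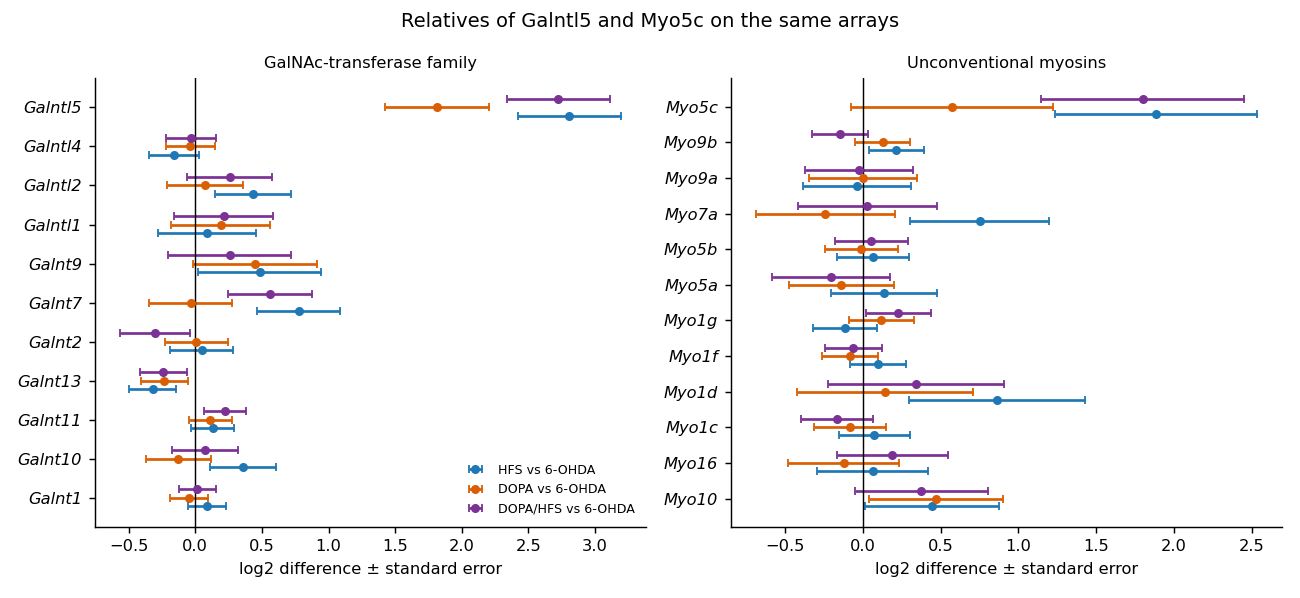
Log2 difference from 6-OHDA with its standard error (x axis) for tested genes of the GalNAc-transferase family and the unconventional myosins (y axis), in HFS, DOPA and DOPA/HFS. Galntl5 at 2.81, 1.81 and 2.72 and Myo5c at 1.89, 0.57 and 1.80, shown on top, were chosen for these differences, and no relative shown exceeds 0.86.

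Other genes of the testis were mostly too dim for the test. Of 19 genes of the sperm tail and centriole, 10 were tested, and Tsga10ip, Odf1, Odf3, Odf4, Akap4, Gapdhs, Ropn1, Tsga13 and Spag6 did not pass the filter. Of 25 genes of the acrosome and the spermatid, 6 were tested. No gene of either list passed in any contrast. Odf2, a protein shared by the sperm tail and the centriole, differed by -0.19, -0.07 and 0.00 (SE 0.19) in HFS, DOPA and DOPA/HFS. The tektins Tekt1 and Tekt2, parts of cilia and flagella, differed by 0.46 and 0.59 in HFS, -0.20 and -0.39 in DOPA and 0.17 and 0.18 in DOPA/HFS, with a sign in DOPA opposite to that of Tsga10. The median of the 10 genes was 0.16, -0.12 and 0.04, and that of the 6 acrosome and spermatid genes -0.05, 0.06 and -0.05.

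Of 20 genes of HIF1A and its targets, 15 were tested and 0 passed in any contrast. Hif1a itself differed by -0.28, 0.02 and -0.24 (SE 0.24) in HFS, DOPA and DOPA/HFS. Among the targets, the growth factor Vegfa differed by 0.14, -0.02 and 0.18 and the vasodilator peptide Adm by -0.51, -0.34 and -0.17. The medians of the 15 genes were 0.04, -0.08 and 0.02. At an unadjusted p under 0.05 against 6-OHDA, 0 genes passed among the myosins, their adaptors, both testis lists and the HIF1A list. With so few genes past an adjusted p over the whole array, counts of 0 in these lists lie at the background.

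The size of the members' differences depended on how background was treated, because the spots are dim. With a normexp background correction in place of the scanner's subtraction, Galntl5 differed from 6-OHDA by 0.80 (HFS), 0.48 (DOPA) and 0.80 (DOPA/HFS). In the deposited log2 table the values were 0.85, 0.50 and 0.76. That table gave 6.54, 6.57 and 6.47 for the 6-OHDA arrays and 7.54, 7.31 and 7.27 for the HFS arrays, so the groups stayed apart and the difference was smaller than the 2.81 of the scanner values.

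Tsga10 in DOPA/HFS went from 1.26 to 0.45 with normexp and 0.40 in the deposited table, and Myo5c in HFS from 1.89 to 0.93 and 0.97. In the deposited table all genes had a median of -0.107 in DOPA/HFS against 6-OHDA, so relative to the other genes the mean differences of that group lie by this much higher. The shift was not even over its arrays. Tsga10 read 7.54, 7.43 and 6.94 there on replicates 1, 2 and 3, against 7.56, 7.47 and 7.26 with normexp. With every value raised to the lowest detected signal of its array, Galntl5 differed by 1.46, 0.53 and 1.37. The tested contrasts between treated groups moved as much. With normexp and in the deposited table, Galntl5 differed by -0.32 and -0.35 between DOPA and HFS, in place of -0.99, and by 0.32 and 0.26 between DOPA/HFS and DOPA, in place of 0.91. Myo5c went from -1.31 to -0.53 and -0.58 between DOPA and HFS, and Tsga10 from 0.72 to 0.30 and 0.22 between DOPA/HFS and DOPA. Against 6-OHDA, the sign stayed positive for each of the 3 genes and treatments in these 3 settings and with scaling to the 75th percentile.

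**Figure D5:**
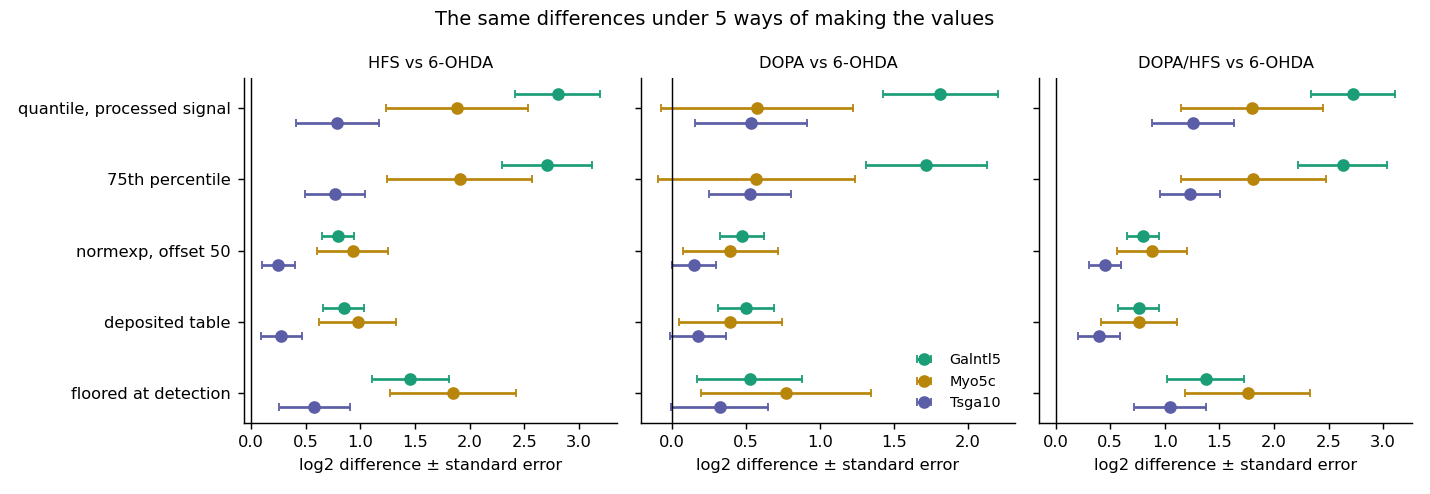
Log2 difference from 6-OHDA with its standard error (x axis) for the 3 genes under 5 ways of making the values (y axis), with a panel per treatment. Scaling to the 75th percentile moves the values little, whereas normexp and the deposited table bring Galntl5 in HFS from 2.81 to 0.80 and 0.85 and Tsga10 below 0.5 in every treatment.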

How the data were processed

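RNA of 12 rat striata was read on 12 single-colour Agilent arrays, and groups and replicate numbers were taken from the labels. The deposited intensity values are scanner output: per the file headers, Feature Extraction software (version 9.1 in the submitters' processing notes) quantified each spot, subtracted local background, corrected spatial trends and set surrogates for very low values, with no scaling between arrays. The deposited log2 values had been quantile normalized by the authors.

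Of 45018 spots, 1639 controls and all outlier spots were left out. Intensities were taken to log2, quantile normalized, averaged per probe and filtered on detection in a share of 0.4 of the arrays, and the probe with the highest mean stood for its gene, which gave 20462 tested genes. Of the 41012 probes, 10735 were named through RefSeq accessions (GRCr8). A fit of the 4 groups with limma 3.58.1 in R 4.3.3 gave differences, standard errors and Benjamini-Hochberg adjusted p. Calls needed an adjusted p under 0.1 plus a change beyond the fold limits of the study's methods (1.2 and 0.8), with limma in place of SAM. The fit was tested on simulated data. Figures were drawn with matplotlib 3.10.9. The number of arrays limits the precision.

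The members, gene lists and rule for named genes (members, list genes and the 5 most correlated genes) were chosen with earlier results of these data known. Other marker lists, for 8 further cell types, gave 0 called genes in any contrast, beside 0 or 1 of 20462 genes over the whole array. The plexus list gave 0 called too, although 11 of its 11 tested genes were higher in HFS than in 6-OHDA at a limma unadjusted p under 0.05. A count of 0 therefore does not show that a cell type was unchanged. Alternatives were scaling to the 75th percentile, normexp with an offset of 50, the deposited table, other filters and probe rules, kept outlier spots, a replicate block, fits of 6 arrays, a stricter p, a floor at detection and leaving out each array. Results for 1 gene of the lists are left out of the text. The labels do not say more on shared batches than the slide.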

Additional observations from a re-analysis of the deposited data

How the results depend on the processing

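Of 24 results (the 3 genes and the count of called genes in 6 contrasts), most kept their direction and side of the threshold. The differences from 6-OHDA, and those between treated groups given in the report, moved with the background: normexp gave Galntl5 0.80 (HFS), 0.48 (DOPA) and 0.80 (DOPA/HFS), Myo5c 0.93 in HFS, and Tsga10 0.25 in HFS and 0.45 in DOPA/HFS; the deposited table gave Galntl5 0.85, 0.50 and 0.76, and in DOPA/HFS Myo5c 0.77 and Tsga10 0.40; values floored at detection gave Galntl5 1.46, 0.53 and 1.37. The mean of both Myo5c probes gave 1.17 in HFS and 1.24 in DOPA/HFS, and turned DOPA/HFS against HFS to 0.068, also with dim probes included, an alternative chosen after seeing the data. Counts of called genes were 0, 1 and 0 against 6-OHDA in HFS, DOPA and DOPA/HFS, and 1 in DOPA against HFS. With no filter, and with the mean including dim probes, they became 3 (HFS), 0 (DOPA), 4 (DOPA against HFS) and 3 (DOPA/HFS against HFS). With detection asked on all 3 arrays of any group, they became 1 (HFS), 2 (DOPA against HFS) and 1 (DOPA/HFS against HFS). They became 2 (DOPA against HFS) with normexp, and 0 (DOPA) with the mean of probes or at a limma adjusted p under 0.05. With only the 6 arrays compared they were 2 (DOPA) and 17 (DOPA against HFS). Same-numbered arrays of different groups deviated together in 10 of 18 pairs (r over 0.1, range -0.287 to 0.476). The median r was 0.112 for these pairs and -0.069 for pairs with other numbers. Only 5 of 12 arrays correlated best with their own number, and the numbers were not taken as pairs. The confidence intervals given for the members are those without the block. With the replicate block the counts in DOPA and in DOPA against HFS became 0. In this balanced design the block cannot change the members' differences; it changed their standard errors from 0.39 to 0.41 (Galntl5), 0.65 to 0.60 (Myo5c) and 0.38 to 0.28 (Tsga10).

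Leaving out 1 array at a time, the differences from 6-OHDA ranged in HFS from 2.61 to 2.99 for Galntl5, 1.72 to 2.03 for Myo5c and 0.47 to 1.04 for Tsga10, in DOPA from 1.33 to 2.28, -0.44 to 1.12 and 0.19 to 0.90, and in DOPA/HFS from 2.53 to 2.91, 1.59 to 1.95 and 0.94 to 1.44. DOPA against HFS ranged from -1.48 to -0.53, -2.33 to -0.76 and -0.60 to 0.11, DOPA/HFS against HFS from -0.19 to 0.04, -0.29 to 0.07 and 0.22 to 0.64, and DOPA/HFS against DOPA from 0.45 to 1.39, 0.67 to 2.24 and 0.36 to 1.07. The sign turned without DOPA replicate 1 (Myo5c, DOPA), DOPA replicate 2 (Tsga10, DOPA against HFS, 0.11), HFS replicate 1 (Galntl5, DOPA/HFS against HFS, 0.020), DOPA/HFS replicate 3 (the same, 0.045) and DOPA/HFS replicate 2 (Myo5c, DOPA/HFS against HFS, 0.068). Counts of calls ranged from 0 to 2 in HFS, 0 to 13 in DOPA, 0 to 3 in DOPA/HFS, 0 to 23 in DOPA against HFS and 0 to 4 in DOPA/HFS against HFS, the highest in the last 4 without DOPA/HFS replicate 1. The causes were not tested. Galntl5 in 6-OHDA was not detected, so its folds against a floor are approximate.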
